A study of Mus musculus with 10 samples.

Results

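The genes described here are the 10 genes of the MHC class II presentation route that the files measure, out of 17603 genes in all. They were chosen by name, without use of a measured value: the classical chains H2-Aa, H2-Ab1 and H2-Eb1, the invariant chain Cd74, the coactivator Ciita, the DM chains H2-DMa, H2-DMb1 and H2-DMb2, and the DO chains H2-Oa and H2-Ob. RNA was sequenced from 10 libraries of sorted cells of female C3H/HeN mice of WT genotype that had been injected with SCC7 cells, a mouse squamous carcinoma line, and the disease state is labelled HNSCC. The cells are labelled EPC, and the labels neither spell the abbreviation out nor give an age, an untumored control, or whether replicates came from separate mice. There were 4 libraries of tumor CD45+ EPC, 3 of splenic CD45+ EPC and 3 of splenic CD45- EPC, so every mouse carried a tumor, and the p-values reflect the spread among these libraries alone, which may be technical. CD45, encoded by Ptprc, is the membrane phosphatase that marks white blood cells.

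MHC class II molecules display peptides from endosomes to CD4 T cells. An alpha and a beta chain pair in the endoplasmic reticulum with the invariant chain, which blocks the groove and leads the complex to endosomes, where cathepsins cut the invariant chain down to a short fragment. The DM heterodimer removes that fragment and edits the peptide, and DO, found mainly in B cells, binds DM and tempers it. Ciita is recruited to a shared promoter module by the RFX factors, CREB1 and NF-Y, and cells of the B, dendritic and macrophage lineages are the usual class II producers.

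The class II promoter module has an X box, bound by RFX and CREB1, and a Y box, bound by NF-Y. Windows of 300 bases around annotated starts (250 before, 50 after) from RefSeq, build GRCm38.p6, a C57BL/6J genome, were held for 7 of the 10 genes, in 8 windows. They were searched on both strands for the Y box core GATTGG (reverse CCAATC) and for AACNGATG (reverse CATCNGTT), a stretch of the X box. The Y box core stood in at least 1 window of each of the 7 genes, against 16.1% of all 32851 windows, and the X box stretch stood in those of H2-Eb1, H2-DMb1 and H2-DMb2, against 2.32% of all windows. Windows with both made up 0.335%. The stretches of 80 bases shown next, on the strand of the gene, hold, for each of 6 genes, 1 core that begins within 100 bases before the start, with the matches in capitals, because these genes are the ones whose levels are compared. They lie on chromosome 17 at chr17:34287843-34287922 (H2-Aa, minus strand), chr17:34305757-34305836 (H2-Eb1, plus), chr17:34153079-34153158 (H2-DMb1, plus), chr17:34145108-34145187 (H2-DMb2, plus), chr17:34092285-34092364 (H2-Oa, plus) and chr17:34238797-34238876 (H2-Ob, plus).
H2-Aa: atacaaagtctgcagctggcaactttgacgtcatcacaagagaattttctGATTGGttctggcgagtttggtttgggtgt
H2-Eb1: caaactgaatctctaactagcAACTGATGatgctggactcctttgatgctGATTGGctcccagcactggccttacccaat
H2-DMb1: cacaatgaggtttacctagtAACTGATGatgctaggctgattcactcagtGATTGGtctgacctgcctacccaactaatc
H2-DMb2: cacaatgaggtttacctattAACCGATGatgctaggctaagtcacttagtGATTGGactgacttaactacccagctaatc
H2-Oa: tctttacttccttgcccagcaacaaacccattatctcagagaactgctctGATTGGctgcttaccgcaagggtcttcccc
H2-Ob: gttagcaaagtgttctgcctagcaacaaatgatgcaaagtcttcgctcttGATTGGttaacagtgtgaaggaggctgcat

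The matches are descriptions of letters, not of binding, and a stretch without the X box letters is not thereby shown to lack an X box. The Y box core began 49 bases before the start of H2-Aa, 60 before H2-Eb1, 62 before H2-DMb1, 91 before H2-DMb2, 44 before H2-Oa and 58 before H2-Ob. The H2-DMb2 start used here, with its window at 34144999 to 34145298, lies inside the gene, whose span is 34143229 to 34151553. H2-Eb1 has a further core on the other strand, 35 bases before the start, which runs past the end of the stretch shown and is not in capitals. Between the X box stretch and the Y box core stood 21 bases in H2-Eb1 and 22 in each of H2-DMb1 and H2-DMb2. The H2-DMb1 and H2-DMb2 stretches had the same letter at 70 of 80 positions, yet in tumor libraries H2-DMb1 was far above H2-DMb2, as given in the paragraphs on DM. In H2-DMa the core began 199 bases before 1 of its annotated starts. H2-Ab1, Cd74 and Ciita are named only.

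Values are FPKM, fragments per kilobase of transcript, scaled to the mapped fragments of the library, summed over the deposited RefSeq models of a gene. From the steps in the low values, a library held roughly 18100000 to 21100000 fragments, so 1 FPKM of a transcript of 1 kilobase rests on about 18.2 to 21.1 fragments. Between 7853 and 10945 genes reached 1 FPKM in a library. Ptprc, the gate's gene, was at 59.4 to 92.5 FPKM in tumor CD45+ libraries, 39.2 to 265 in splenic CD45+ libraries and 1.63 to 2.57 in splenic CD45- libraries. Libraries of a group were unequal: tumor replicates 2, 3 and 4 differed from each other by a chi-square of 1.83 to 1.94 per gene (1 is counting noise) and from tumor replicate 1 by 9.44 to 9.61, while splenic CD45+ pairs differed by 10.1 to 32.4. Splenic CD45+ replicate 2 and tumor replicate 1 thus stood apart, and values without them are given where leaving them out changes a call or a difference of the 10 genes by much. The defining B cell genes Cd79a and Cd79b, and the erythroid marker sum, were lower in every tumor CD45+ library than in any splenic library. In bulk samples, fewer cells of a type and less RNA per cell cannot be told apart.

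In splenic CD45+ libraries all 10 genes stood above splenic CD45- libraries, by a median of 4.06 on the log2(FPKM + 1) scale, against a median of 0.67 over all 9728 genes tested. Each of the 10 passed the test (limma, Benjamini-Hochberg adjusted p below 0.05 over all genes), Ciita having entered through its splenic CD45+ values alone, while 50.5% of all genes tested were called higher and 5.02% lower. No member had overlapping groups, as was so, in the higher direction, for 59% of all genes. Tumor CD45+ libraries differed from splenic CD45+ libraries gene by gene. The classical chains, Cd74, Ciita, H2-DMb2, H2-Oa and H2-Ob fell in tumor CD45+, 8 of 10 members against 26% of 11463 genes called lower. That count was 2 of 8 tested without splenic CD45+ replicate 1 or 3, and 4 without tumor replicate 1. Ciita and H2-Ob had entered through their splenic CD45+ values alone. In 6 of the 8 the groups did not overlap, as was so for 28.1% of all genes in that direction, and the members' median difference was -2.86 against 0.20 over all genes. H2-DMa and H2-DMb1 were not called in either direction, where 37.7% of all genes were called higher.

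**Figure D1:**
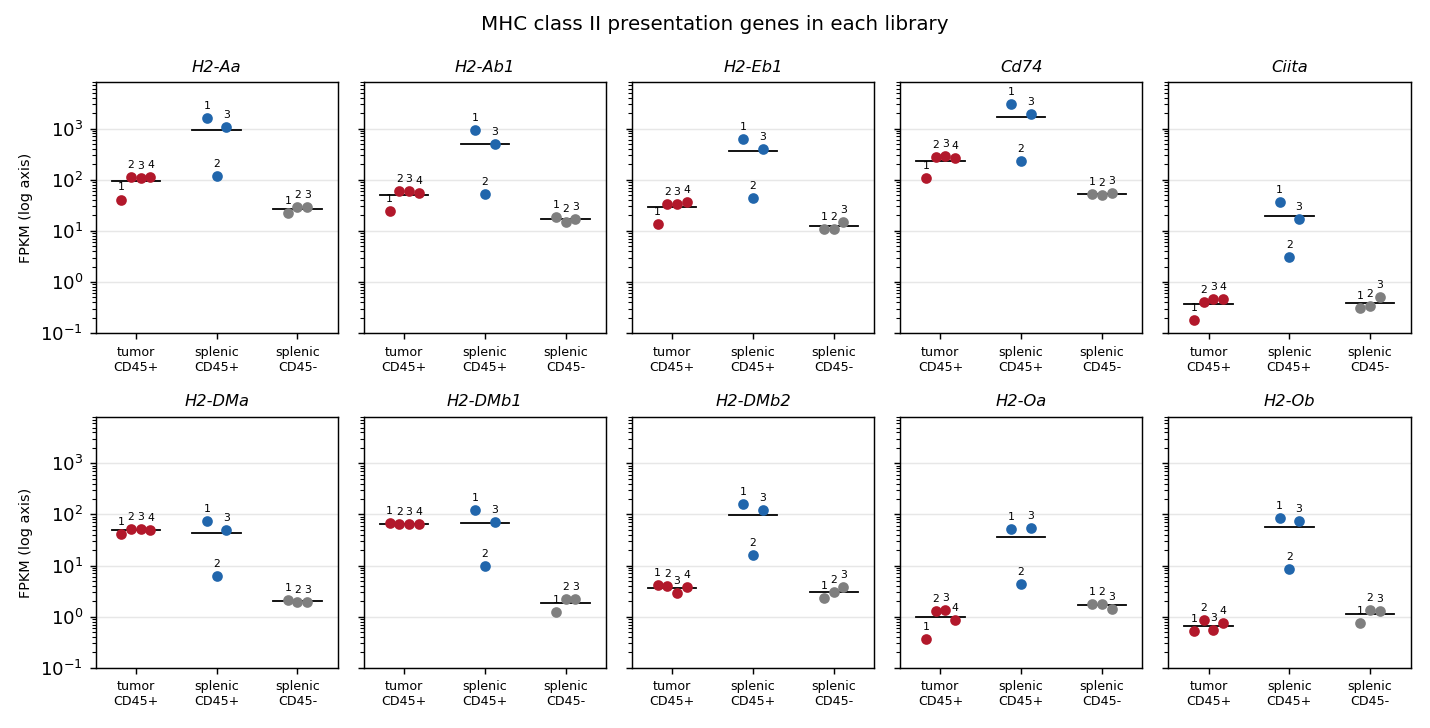
FPKM (log axis) of the 10 genes in each library, with the replicate number over each point and a line at the group mean; groups are tumor CD45+ (red, n = 4), splenic CD45+ (blue, n = 3) and splenic CD45- (grey, n = 3). Splenic CD45+ libraries lie above splenic CD45- libraries for every gene, and tumor CD45+ libraries reach the splenic CD45+ levels only for H2-DMa and H2-DMb1 and, beside splenic CD45+ replicate 2, for H2-Ab1 and Cd74.

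The classical chains form the peptide-binding molecules themselves: H2-Aa encodes the alpha and H2-Ab1 the beta chain of I-A, and H2-Eb1 the beta chain of I-E. H2-Aa lies at 34282744 to 34287823, H2-Ab1 at 34263227 to 34269418 and H2-Eb1 at 34305867 to 34316674 of chromosome 17 (GRCm38.p6). H2-Aa was at 40.8, 112, 108 and 112 FPKM in tumor CD45+ replicates 1 to 4, at 1581, 119.7 and 1062 FPKM in splenic CD45+ replicates 1 to 3, and at 21.8, 29.3 and 29.2 FPKM in splenic CD45- replicates 1 to 3. Every splenic CD45+ library was above every other library, but replicate 2 only slightly above tumor replicates 2 to 4. H2-Ab1 was at 24.7, 59.5, 59.0 and 54.9 FPKM in tumor CD45+, at 921, 52.5 and 499 FPKM in splenic CD45+, and at 18.4, 15.2 and 17.2 FPKM in splenic CD45- libraries. Here splenic CD45+ replicate 2 fell below 3 of the tumor libraries, so those groups overlap. H2-Eb1 was at 13.3, 33.96, 33.98 and 36.4 FPKM in tumor CD45+, at 632, 43.2 and 398 FPKM in splenic CD45+, and at 11.04, 10.9 and 14.6 FPKM in splenic CD45- libraries. Its order was the same as that of H2-Aa between the CD45+ groups, and tumor replicate 1 lay among the splenic CD45- libraries.

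Between the splenic gates, H2-Aa was higher in CD45+ by 4.41 ± 0.87 on the log2 scale (SE; limma adjusted p = 0.00454), H2-Ab1 by 4.03 ± 0.93 (adjusted p = 0.00862) and H2-Eb1 by 4.10 ± 0.89 (adjusted p = 0.00675). Without splenic CD45+ replicate 2 these differences were 5.56, 5.25 and 5.27, and without replicate 1 they were 3.70, 3.19 and 3.35, all still called. Tumor CD45+ libraries set against splenic CD45+ libraries gave -2.75 ± 0.85 for H2-Aa (adjusted p = 0.0224), -2.61 ± 0.89 for H2-Ab1 (adjusted p = 0.0334) and -2.97 ± 0.86 for H2-Eb1 (adjusted p = 0.0170). Without splenic CD45+ replicate 2 the differences were -3.89, -3.83 and -4.14. Each of the 3 calls was lost without splenic CD45+ replicate 1 (adjusted p = 0.0724, 0.104 and 0.0539), without splenic CD45+ replicate 3 (0.0882, 0.118 and 0.0705) and without tumor replicate 1 (0.0680, 0.0949 and 0.0546), and that of H2-Ab1 also without any other tumor library (0.0553 to 0.0606). The tumor mean was 10.1% of the splenic CD45+ mean for H2-Aa, 10.1% for H2-Ab1 and 8.22% for H2-Eb1.

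Cd74, on chromosome 18 at 60803849 to 60812652, encodes the invariant chain and was the most abundant of the 10 genes in every library. It was at 108, 279, 295 and 261 FPKM in tumor CD45+ libraries, at 2948, 229 and 1902 FPKM in splenic CD45+ libraries, and at 53.3, 51.1 and 54.4 FPKM in splenic CD45- libraries. Splenic CD45+ replicate 2 lay inside the tumor range, and no CD45- library reached a CD45+ one. Cd74 was higher in splenic CD45+ than in splenic CD45- libraries by 4.34 ± 0.85 (adjusted p = 0.00448; 5.46 without splenic CD45+ replicate 2 and 3.62 without replicate 1). It was lower in tumor CD45+ than in splenic CD45+ libraries, with a difference of -2.30 ± 0.84 (adjusted p = 0.0417). That call was lost in 6 of 7 fits that left out 1 library, with adjusted p from 0.0619 to 0.142, and without splenic CD45+ replicate 2 the difference was -3.43 (adjusted p = 0.000213).

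The balance of Cd74 to the classical chains also differed by tissue. Cd74 per summed classical chains was 1.28 to 1.47 in tumor CD45+, 0.941 to 1.06 in splenic CD45+ and 0.892 to 1.04 in splenic CD45- libraries, and the tumor libraries overlapped neither splenic group. The classical chains have further numbered copies of their models, summed here, and Cd74 has none, so the level of this ratio depends on the summing. On the unnumbered models alone, an alternative chosen after seeing the data, it was 4.72 to 5.49 in tumor CD45+ libraries. It was then 3.44 to 3.85 in splenic CD45+ and 3.24 to 4.07 in splenic CD45- libraries, and the tumor libraries again stood apart. The files hold 2 Cd74 models, of 1410 and 1224 bases, and the longer form carries a thyroglobulin-type domain. The longer model was at 19.99, 58.2, 51.4 and 52.2 FPKM in tumor CD45+, at 386, 19.8 and 137 FPKM in splenic CD45+, and at 4.57, 4.22 and 4.26 FPKM in splenic CD45- libraries. Its share of both models was 17.4% to 20.9% in tumor CD45+, 7.22% to 13.1% in splenic CD45+ and 7.83% to 8.57% in splenic CD45- libraries. The tumor libraries thus had the highest share, although splenic CD45+ replicate 1 had the highest level. The sources used here do not say how reads were divided between overlapping models. For such ratios an exact two-sided permutation test of 4 against 3 libraries cannot go below p = 0.0571, and of 3 against 3 below 0.1, so ratios are given as ranges without a test.

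Ciita, on chromosome 16 at 10480014 to 10531064, is the coactivator without which class II genes are hardly transcribed. Its FPKM were 0.18, 0.40, 0.46 and 0.47 in tumor CD45+, 36.8, 3.10 and 17.3 in splenic CD45+, and 0.31, 0.34 and 0.51 in splenic CD45- libraries. Tumor CD45+ and splenic CD45- libraries overlapped at this low level, and every splenic CD45+ library was above both. Ciita was 3.36 ± 0.72 higher in splenic CD45+ than in splenic CD45- (adjusted p = 0.00629) and lower in tumor CD45+ than in splenic CD45+, at -3.37 ± 0.65 (adjusted p = 0.00251). It entered both tests only through the splenic CD45+ libraries, so it could be called in 1 direction alone. The tumor mean was 1.98% of the splenic CD45+ mean, a smaller share than that of any classical chain.

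Per summed classical chains, Ciita was 0.00195 to 0.00231 in tumor CD45+, 0.00885 to 0.0144 in splenic CD45+ and 0.00605 to 0.00837 in splenic CD45- libraries. The tumor libraries therefore held classical chain RNA with the least Ciita RNA beside it, and no group overlapped another in this ratio. Ciita, like Cd74, has no numbered copies. On the unnumbered models alone, the ratio in tumor CD45+ libraries was 0.0072 to 0.00869. It was then 0.0316 to 0.05205 in splenic CD45+ and 0.0219 to 0.0304 in splenic CD45- libraries, again without overlap. Of the 8 deposited Ciita models, 1 predicted model was at 12.8, 1.11 and 6.26 FPKM in splenic CD45+ libraries and at 0 to 0.22 FPKM in the others. The longest curated model, of 6007 bases, was at 0 in all 4 tumor libraries, at 11.3, 1.43 and 9.27 FPKM in splenic CD45+ and at 0.10, 0.12 and 0.02 FPKM in splenic CD45- libraries.

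**Figure D2:**
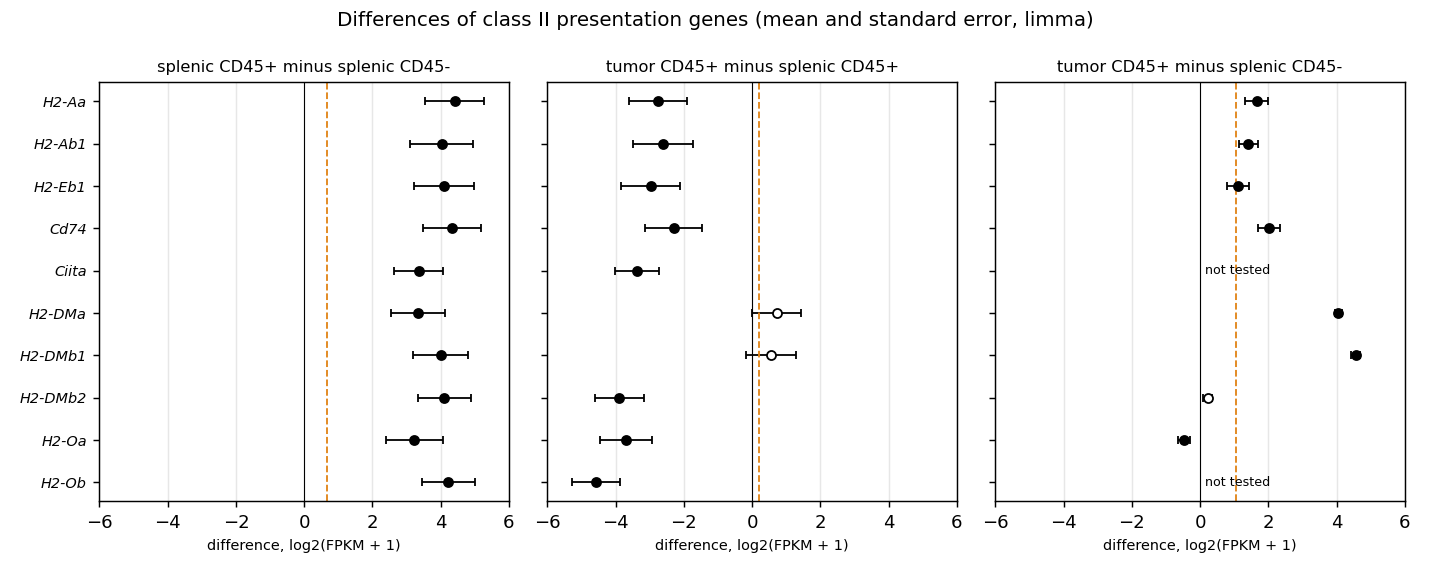
Difference of each gene on the log2(FPKM + 1) scale with its standard error (limma) for the 3 comparisons; filled points passed at an adjusted p below 0.05, open points did not, and the dashed line is the median of all genes tested. Splenic CD45+ minus splenic CD45- lies between 3.23 and 4.41 for every gene, while tumor CD45+ minus splenic CD45+ runs from -4.58 for H2-Ob to 0.72 for H2-DMa.

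The DM chains, which exchange the invariant chain fragment for peptide, differed in whether they were called in the tumor. H2-DMa (chromosome 17, 34119693 to 34139101) encodes the alpha chain and was at 41.6, 52.5, 51.3 and 50.5 FPKM in tumor CD45+, 74.2, 6.13 and 50.1 FPKM in splenic CD45+, and 2.14, 1.95 and 1.93 FPKM in splenic CD45- libraries. H2-DMb1 (34153191 to 34160229), a beta chain, was at 67.9, 64.9, 65.6 and 64.7 FPKM in tumor CD45+, 121, 9.68 and 70.6 FPKM in splenic CD45+, and 1.22, 2.22 and 2.20 FPKM in splenic CD45- libraries. For both, the tumor libraries were close to each other and lay inside the wide splenic CD45+ range. H2-DMb2 (34143229 to 34151553), the other beta chain gene, was at 4.14, 3.96, 2.94 and 3.72 FPKM in tumor CD45+, 158, 15.7 and 123 FPKM in splenic CD45+, and 2.34, 3.02 and 3.76 FPKM in splenic CD45- libraries. Its tumor libraries overlapped those of splenic CD45- and not those of splenic CD45+.

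In splenic CD45+ against splenic CD45- libraries, the log2 differences were 3.33 ± 0.79 for H2-DMa (adjusted p = 0.00964), 4.00 ± 0.81 for H2-DMb1 (adjusted p = 0.00518) and 4.11 ± 0.78 for H2-DMb2 (adjusted p = 0.00401). Without splenic CD45+ replicate 2 they were 4.37, 5.04 and 5.13, and without replicate 1 they were 2.67, 3.28 and 3.51. Between tumor CD45+ and splenic CD45+ libraries, H2-DMb2 fell by 3.89 ± 0.71 (adjusted p = 0.00190; -4.91 without splenic CD45+ replicate 2), a call kept in all 7 fits that left out 1 library. H2-DMa differed by 0.72 ± 0.72 (adjusted p = 0.406) and H2-DMb1 by 0.56 ± 0.73 (adjusted p = 0.525), neither beyond the spread between libraries. Their sign rested on splenic CD45+ replicate 2, without which the values were -0.32 (adjusted p = 0.141) and -0.49 (adjusted p = 0.0563). The tumor mean was 113% of the splenic CD45+ mean for H2-DMa, 97.9% for H2-DMb1 and 3.73% for H2-DMb2.

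With all deposited models summed, H2-DMb1 made up 94.3% to 95.7% of both beta chain genes in tumor CD45+ libraries, 36.5% to 43.4% in splenic CD45+ and 34.3% to 42.4% in splenic CD45- libraries, and both splenic groups overlapped. The share depended on which models were summed. On the unnumbered models alone, an alternative chosen after seeing the data, it was 75.1% to 85.6% in tumor CD45+ libraries. It was then 25.3%, 23.45% and 81.7% in splenic CD45+ replicates 1 to 3, and 16.7% to 26.6% in splenic CD45- libraries. Splenic CD45+ replicate 3 thus lay among the tumor libraries, and every other splenic library lay below them. In that replicate the unnumbered H2-DMb2 model was at 2.56 FPKM and its second copy at 65.9 FPKM, models equal in every other library. H2-DMb1 and H2-DMb2 are near-identical in places: 361 stretches of 50 bases occur in both transcripts, 26.6% of those of H2-DMb1 and 25.2% of those of H2-DMb2, so their levels depend on how shared reads were assigned. Summed DM chains per summed classical chains were 0.585 to 1.44 in tumor CD45+, with tumor replicate 1 highest and the others at 0.585 to 0.597, against 0.113 to 0.147 in splenic CD45+ and 0.111 to 0.1298 in splenic CD45- libraries. On the unnumbered models alone, this ratio was 0.253 to 0.645 in tumor CD45+ libraries. It was then 0.03775 to 0.1197 in splenic CD45+ and 0.11 to 0.1243 in splenic CD45- libraries.

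The DO chains, like H2-DMb2, were called lower in tumor CD45+ than in splenic CD45+. H2-Oa (34092379 to 34095234), the alpha chain, was at 0.36, 1.30, 1.36 and 0.86 FPKM in tumor CD45+, 52.7, 4.38 and 53.2 FPKM in splenic CD45+, and 1.80, 1.78 and 1.44 FPKM in splenic CD45- libraries. H2-Ob (34238905 to 34245908), the beta chain, was at 0.52, 0.86, 0.54 and 0.74 FPKM in tumor CD45+, 84.5, 8.50 and 75.4 FPKM in splenic CD45+, and 0.74, 1.36 and 1.28 FPKM in splenic CD45- libraries. Even splenic CD45+ replicate 2 was above every tumor library for both genes. H2-Oa was higher by 3.23 ± 0.83 (adjusted p = 0.0133) and H2-Ob by 4.23 ± 0.78 (adjusted p = 0.00366) in splenic CD45+ than in splenic CD45- libraries, and by 4.34 and 5.26 without splenic CD45+ replicate 2. Tumor CD45+ libraries were lower than splenic CD45+ libraries with differences of -3.70 ± 0.77 for H2-Oa (adjusted p = 0.00381) and -4.58 ± 0.71 for H2-Ob (adjusted p = 0.000845), and H2-Ob entered that test only through splenic CD45+. Without splenic CD45+ replicate 2 the H2-Oa difference was -4.81. Summed DO chains per summed DM chains were 0.00774 to 0.0178 in tumor CD45+, 0.388 to 0.528 in splenic CD45+ and 0.345 to 0.446 in splenic CD45- libraries. On the unnumbered models alone they were 0.0277 to 0.0640 in tumor CD45+, 0.673 to 2.375 in splenic CD45+ and 0.48 to 0.632 in splenic CD45- libraries. The 2.375 was splenic CD45+ replicate 3, with its low unnumbered H2-DMb2 value, and replicates 1 and 2 were at 0.707 and 0.673.

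**Figure D3:**
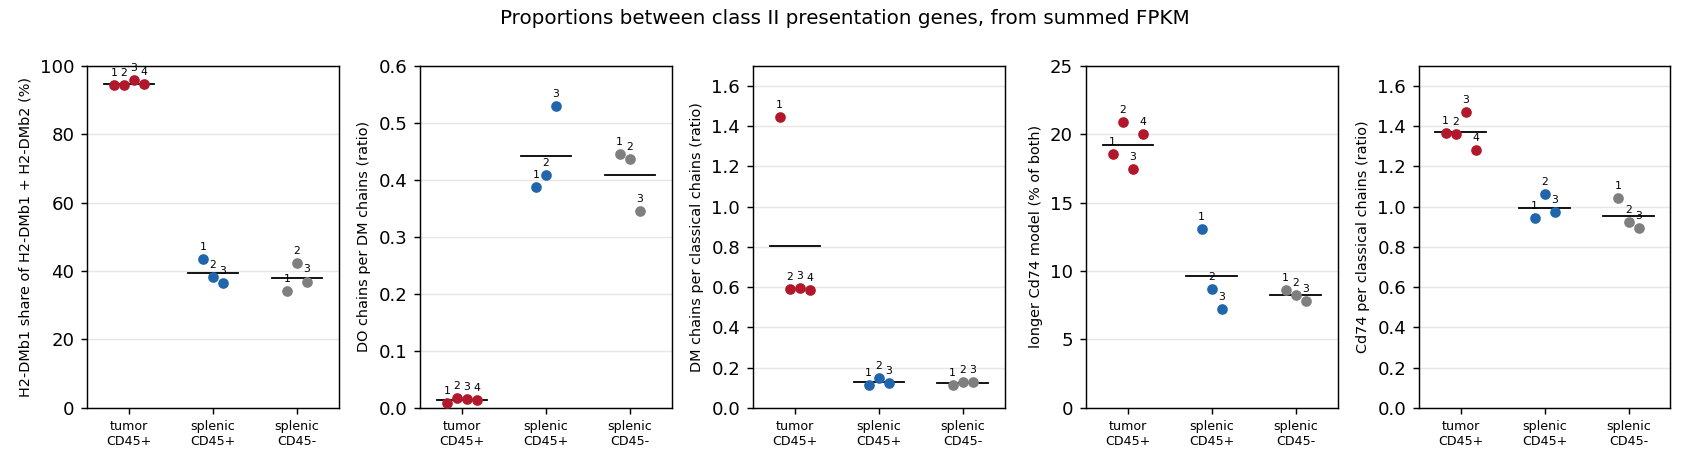
Proportions within each library, with the replicate number over each point and a line at the group mean, for tumor CD45+ (red), splenic CD45+ (blue) and splenic CD45- (grey); axes start at 0. The splenic groups overlap in each panel shown, while tumor CD45+ libraries stand apart from both, at 94.3% to 95.7% of H2-DMb1 among DM beta chains and 0.00774 to 0.0178 DO per DM; on the unnumbered models alone splenic CD45+ replicate 3 joins the tumor libraries in the H2-DMb1 share, at 81.7%.

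Between tumor CD45+ and splenic CD45- libraries both the tissue and the gate change, and these cannot be told apart. In that comparison 8 of the 10 genes were tested, Ciita and H2-Ob being too low, and 6 were called higher in tumor CD45+, where 67.5% of 11208 genes were. H2-DMa (4.05 ± 0.10, adjusted p = 6.20e-10) and H2-DMb1 (4.56 ± 0.13, adjusted p = 1.97e-09) differed most, at 24.4 and 35.0 times the splenic CD45- mean FPKM. Cd74 was 2.03 ± 0.32 higher (adjusted p = 0.000242), H2-Aa 1.66 ± 0.34 (0.00134), H2-Ab1 1.42 ± 0.29 (0.00120) and H2-Eb1 1.12 ± 0.32 (0.00879), next to a median of 1.06 over all genes. The 3 classical chains lost their calls under trimmed-mean scaling, which set the median of all genes at -0.01: the differences were then 0.42, 0.20 and -0.08 for H2-Aa, H2-Ab1 and H2-Eb1. H2-DMb2 differed by 0.22 ± 0.14 (adjusted p = 0.157), and H2-Oa was called lower, at -0.47 ± 0.18 (adjusted p = 0.0355), where 22.5% of genes were called lower. The H2-Oa call was lost without splenic CD45- replicate 1 or 2 or without tumor replicate 4 (adjusted p = 0.102, 0.0960 and 0.0685).

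The splenic CD45+ replicates were far apart from each other. Replicate 1 held 9.94 times (H2-Ob) to 17.6 times (H2-Ab1) the FPKM of replicate 2, and replicate 3 held 5.59 times (Ciita) to 12.2 times (H2-Oa). The 10 genes summed to 301 to 618 FPKM in tumor CD45+, 492 to 6610 in splenic CD45+ and 113 to 127 in splenic CD45- libraries. Tumor replicate 1 was the lowest tumor library for 8 of the 10 genes, down to 30.7% of the mean of the others for H2-Oa, and the highest for H2-DMb1 and H2-DMb2 (117% for H2-DMb2).

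Markers of other cells also differed between the groups, some with these genes and some the other way, and their part in the results was not tested. The 12 B cell markers summed to 6.17 to 8.15 FPKM in tumor CD45+, 168 to 1555 in splenic CD45+ and 28.2 to 36.3 in splenic CD45- libraries. All 12 were called higher in splenic CD45+ than in splenic CD45-, where 50.5% of all genes were. Of these, 3 entered through splenic CD45+ alone. All 12 were called lower in tumor CD45+ than in splenic CD45+, where 26% of all genes were. Of them, 8 were below 1 FPKM in every tumor library, so they entered through splenic CD45+ alone and could only be called lower. None of the 12 was at 0 in all tumor libraries. Cd79a, the signalling chain of the B cell receptor, was at 1.17, 0.25, 0.15 and 0.05 FPKM in tumor CD45+, 593, 64.9 and 469 FPKM in splenic CD45+, and 13.2, 13.9 and 14.5 FPKM in splenic CD45- libraries. Summed classical chains per Cd79a were 3.32 to 5.28 in splenic CD45+ and 3.88 to 4.22 in splenic CD45- libraries. They were 67.4 to 4071 in tumor CD45+ libraries, where Cd79a was at 0.05 to 1.17 FPKM.

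The 13 monocyte and macrophage markers summed to 25670 to 47120 FPKM in tumor CD45+, 1400 to 4354 in splenic CD45+ and 63.4 to 119 in splenic CD45- libraries. In tumor CD45+ against splenic CD45+, 12 of 13 rose, where 37.7% of all genes did. Lyz2, the macrophage and granulocyte lysozyme, rose by 2.92 ± 0.41 there. Classical chains per Csf1r, the receptor of macrophage colony-stimulating factor, were 0.259 to 0.809 in tumor CD45+, 15.6 to 48.4 in splenic CD45+ and 18.1 to 21.4 in splenic CD45- libraries. The 10 dendritic cell markers summed to 24.95 to 41.9 FPKM in tumor CD45+, 9.68 to 135 in splenic CD45+ and 1.41 to 1.85 in splenic CD45- libraries. In the tumor, Clec10a (15.4 to 22.7 FPKM) and Itgax (4.94 to 10.8 FPKM) made up most of the sum. There 6 of the 10 markers were below 1 FPKM in every library, as were all 10 in splenic CD45- libraries. Of 7 tested between the CD45+ groups, Ccr7, Cd209a, Flt3 and Siglech fell in the tumor, where 26% of all genes did. Clec10a rose (2.23 ± 0.62), where 37.7% of all genes did. Cd209a, Flt3 and Siglech were below 1 FPKM in every tumor library, so they entered through splenic CD45+ alone. Cd209a lost its call in all 4 fits that could leave out 1 library (adjusted p = 0.0575 to 0.0777). The Clec10a call was lost without splenic CD45+ replicate 3 (adjusted p = 0.0541), and its difference was 3.06 without replicate 1 and 1.55 without replicate 2 of that group. Granulocyte markers summed to 39.3 to 1742 FPKM in tumor CD45+, 23020 to 77530 in splenic CD45+ and 383 to 519 in splenic CD45- libraries. The 1742 was tumor replicate 1, the tumor library whose classical chains were lowest.

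T and NK cell markers summed to 5.81 to 41.5 FPKM in tumor CD45+, 56.7 to 339 in splenic CD45+ and 19.6 to 19.9 in splenic CD45- libraries. Most of the splenic CD45- sum was Lck, at 13.55 to 15.01 FPKM, and 6 of the 10 markers were below 1 FPKM in every such library. Erythroid markers summed to 5983 to 40970 FPKM in tumor CD45+, 128500 to 275900 in splenic CD45+ and 325500 to 416300 in splenic CD45- libraries. Epithelial markers summed to 312 to 406 FPKM in tumor CD45+, 0.39 to 2.84 in splenic CD45+ and 0.03 to 0.81 in splenic CD45- libraries, carried in the tumor by Krt8 and Krt18, the keratins of simple epithelium. Krt5, Krt14 and Epcam were below 1 FPKM in every tumor library.

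**Figure D4:**
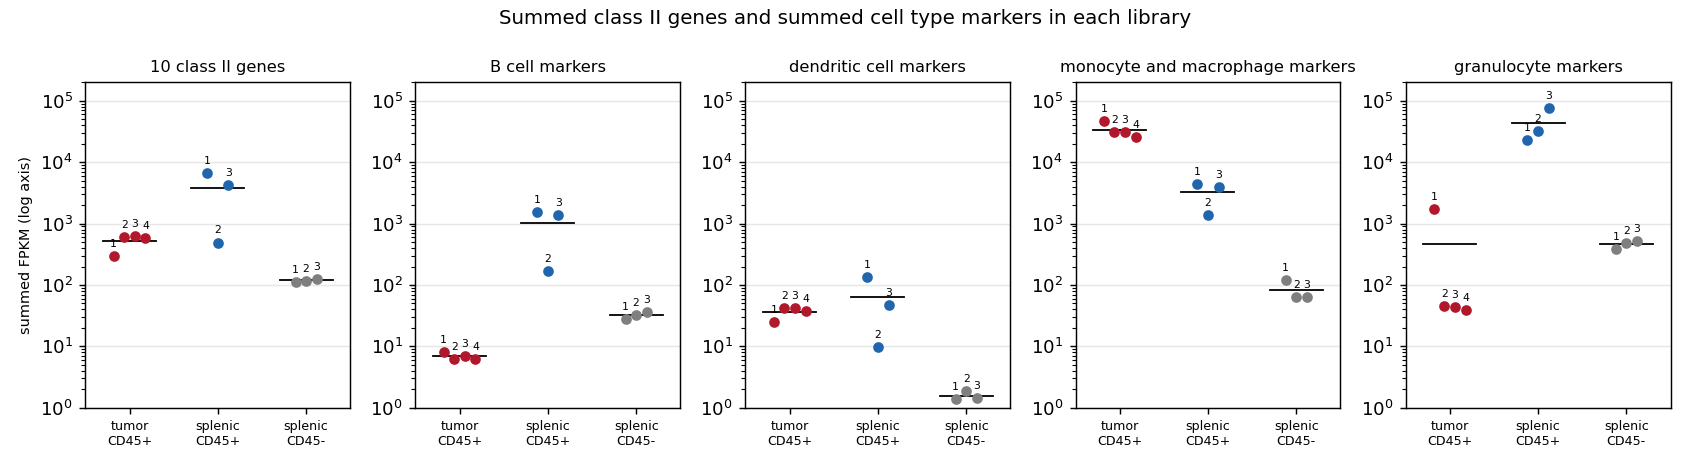
Summed FPKM (log axis) of the 10 class II genes and of 4 lists of cell type markers in each library, numbered by replicate, for tumor CD45+ (red), splenic CD45+ (blue) and splenic CD45- (grey). B cell markers are lowest in tumor CD45+ (6.17 to 8.15 FPKM) and monocyte and macrophage markers highest there (25670 to 47120 FPKM).

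Of the 7 factors that bind the class II promoter module, Rfx5, a subunit of RFX, and Creb1 rose in splenic CD45+ against splenic CD45-, by 1.99 ± 0.53 and 1.28 ± 0.24, and the other 5 were not called. Creb1 lost that call under trimmed-mean scaling (0.31), as did Irf2 (0.33) and Ctsl (0.30) among the genes named further on. Rfx5 was at 2.74, 3.29, 3.34 and 3.50 FPKM in tumor CD45+, 10.9, 1.60 and 8.02 FPKM in splenic CD45+, and 0.58, 0.70 and 0.64 FPKM in splenic CD45- libraries. It entered that test through splenic CD45+ alone, and its call was lost without splenic CD45- replicate 1 (adjusted p = 0.0548). Nfyb (-1.46 ± 0.18) and Nfyc (-1.10 ± 0.17), subunits of NF-Y, and Creb1 (-0.71 ± 0.15) fell in tumor CD45+ against splenic CD45+. With a common sum the Creb1 call was lost (-0.48), as was that of Jak1 (-0.51). That of Creb1 was also lost on the highest model alone (adjusted p = 0.0886). The other 4 were not called, with Rfx5 at -0.63 ± 0.47 (adjusted p = 0.269; -1.30, adjusted p = 0.000163, without splenic CD45+ replicate 2), Nfya at -0.66, Rfxap at 0.07 and Rfxank at -0.13. The median of the 7 was 0.29 in the first comparison and -0.66 in the second, beside 0.67 and 0.20 over all genes. Of all genes, 50.5% were called higher in the first and 26% lower in the second.

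Interferon-γ induces Ciita through its receptor, the kinases JAK1 and JAK2, and IRF1. Of 12 genes of that axis, 9 were tested between the splenic gates and 8 rose in CD45+, where 50.5% of all genes did: Ifngr1, Ifngr2, Irf1, Irf2, Irf4, Irf8, Spi1 and Jak1, with Spi1, the myeloid and B cell factor PU.1, at 4.52 ± 0.40. Ifngr2 and Irf4 entered through splenic CD45+ alone, and the Irf4 call was lost without splenic CD45- replicate 1 (adjusted p = 0.0547). The Jak1 call was lost without that library (adjusted p = 0.0536) and with globin genes removed (0.0580), and Jak1 changed sign under trimmed-mean scaling (-0.17). Between the CD45+ groups 11 were tested: Ifngr2 (1.94 ± 0.41), Irf1 (1.75 ± 0.62), Socs1 (1.74 ± 0.39) and Spi1 (1.88 ± 0.36) rose, and Jak2 (-1.73 ± 0.17), Jak1 (-0.77 ± 0.19) and Irf4 (-2.61 ± 0.69) fell. Of all genes, 37.7% were called higher and 26% lower there. Irf1, a transcription factor that interferon-γ induces, was at 36.2, 80.4, 85.9 and 80.1 FPKM in tumor CD45+, 43.6, 5.92 and 26.0 FPKM in splenic CD45+, and 1.09, 1.01 and 0.89 FPKM in splenic CD45- libraries. Its tumor call was lost without splenic CD45+ replicate 3 or without tumor replicate 2, 3 or 4 (adjusted p = 0.0629 to 0.0844), and without splenic CD45+ replicate 2 the difference was 0.97. It was also lost with globin genes removed (1.29, adjusted p = 0.123) and with no filter (adjusted p = 0.0606). Irf4, which B and plasma cells use, entered this test too through splenic CD45+ alone, at 0.45 to 0.66 FPKM in tumor CD45+, 1.36 to 20.8 in splenic CD45+ and 0.16 to 0.35 in splenic CD45- libraries. Ifng itself stayed below the filter, at 0 to 0.79 FPKM in tumor CD45+, 0.08 to 3.46 in splenic CD45+ and 0 to 0.08 in splenic CD45- libraries.

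Of 12 genes of endosomal processing and surface turnover, 10 were higher and 1 lower in tumor CD45+ than in splenic CD45+, where 37.7% of all genes were higher, with a median of 2.47 against 0.20 over all genes. Cathepsin S (Ctss), the main protease of late invariant chain cleavage in B and dendritic cells, was at 3755, 3482, 3529.9 and 3428 FPKM in tumor CD45+, 576, 43.7 and 276 FPKM in splenic CD45+, and 11.9, 7.61 and 8.87 FPKM in splenic CD45- libraries. It rose by 4.20 ± 0.75 in tumor CD45+ against splenic CD45+ (5.0 without splenic CD45+ replicate 1 and 3.15 without replicate 2), and Ctsl rose by 6.19 ± 0.22, Ctsd by 2.53 ± 0.19 and Ctsb by 2.41 ± 0.36. Between the splenic gates, Ctss (4.22 ± 0.83; 3.43 and 5.27 without the same libraries) and Ctsl (1.33 ± 0.25) were higher in CD45+. They were among 8 of the 12 genes that rose there, where 50.5% of all genes did. Ctsb (-0.11) and Ctsd (0.12) were not called, and Marchf8, a ubiquitin ligase of surface proteins, was lower. Of 7 co-stimulation genes, 4 were tested between the splenic gates and all 4 rose in CD45+ (Cd40, Cd83, Cd86 and Icosl), where 50.5% of all genes did. Cd40, Cd86 and Icosl entered through splenic CD45+ alone, and the Cd86 call was lost without splenic CD45- replicate 1 or 2 (adjusted p = 0.0704 and 0.0572). Of 5 tested between the CD45+ groups, Cd80, Cd83 (3.80 ± 0.75; 2.82 without splenic CD45+ replicate 2) and Cd86 (2.04 ± 0.71) rose in the tumor. There 37.7% of all genes did. The Cd86 call was lost without splenic CD45+ replicate 3 or without any 1 tumor library (adjusted p = 0.0644 to 0.0825). It was also lost with globin genes removed (1.59, adjusted p = 0.0974) and with no filter (adjusted p = 0.0589). Without splenic CD45+ replicate 2 the Cd86 difference was 1.05.

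H2-Eb2, a further beta chain gene of the region (34325503 to 34341410), never passed the filter. It was listed at 0, 0, 0.01 and 0 FPKM in tumor CD45+, 8.49, 0.99 and 10.8 FPKM in splenic CD45+, and 0.08, 0.14 and 0.14 FPKM in splenic CD45- libraries. H2-Ea, the alpha partner of H2-Eb1, was not analysed here.

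Likeness to the classical chains and Cd74 was measured as the root mean square difference from their mean profile, in centred log2(FPKM + 1) over the 10 libraries, among 11541 genes. H2-Aa, H2-Ab1, H2-Eb1 and Cd74 differed from that mean, of which they are part, by 0.13, 0.13, 0.20 and 0.22. The most alike genes outside the set were Ms4a4b (0.40), Cd3g (0.41), Ets1 (0.41), P2ry10 (0.43), Slamf6 (0.44), Snn (0.44), Ncr1 (0.46) and Pecam1 (0.48). Ms4a4b, a membrane protein of T cells, was at 3.28, 7.16, 8.39 and 8.23 FPKM in tumor CD45+, 64.5, 10.1 and 65.5 FPKM in splenic CD45+, and 0.35, 0.96 and 0.96 FPKM in splenic CD45- libraries. Closer than any of the other members were thus genes outside the class II route: Ciita was at 0.74, H2-DMb2 at 0.77, H2-Oa at 0.89, H2-Ob at 1.01, H2-DMa at 1.51 and H2-DMb1 at 1.58, where the lowest 1% of all genes lay below 0.89 and the median gene at 1.92. The points share libraries and depth, so likeness is a description.

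The class II region appears more than once in the deposited tables, which bears on the levels. All 8 of the H2 genes have numbered copies of their models, and which locus each copy stands for is not in the files. The second copy held the same value as the unnumbered model in 79 of 80 gene and library pairs (within 0.005 FPKM), and the exception was H2-DMb2 in splenic CD45+ replicate 3. There the unnumbered model was at 2.56 FPKM and the second copy at 65.9 FPKM, and results on the unnumbered models include that 2.56. Copies 3 and 4 held the same value as each other in 80 of 80. Copies 3 and 4 carried 83.1% to 87.2% of the summed H2-DMb1 value in tumor CD45+, 67.6% to 73.7% in splenic CD45+ and 68.2% to 72.1% in splenic CD45- libraries. For H2-Eb1 they carried 18.7% to 20.3% in tumor CD45+, 18.1% to 20.4% in splenic CD45+ and 15.4% to 20.7% in splenic CD45- libraries, and the groups overlap. With the numbered copies left out, an alternative chosen after seeing the data, 8 members rather than 10 were called higher in splenic CD45+ than in splenic CD45-, because H2-DMb2 reached 2.34 (adjusted p = 0.0516) and H2-DMa failed the filter. In tumor CD45+ against splenic CD45+, the 8 genes called lower with all copies summed, H2-DMb2 among them, were still called lower. H2-DMb1 was at -0.49 there (adjusted p = 0.497). C3H mice carry another class II haplotype than the C57BL/6 reference, and the part of that in the levels was not tested.

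**Figure D5:**
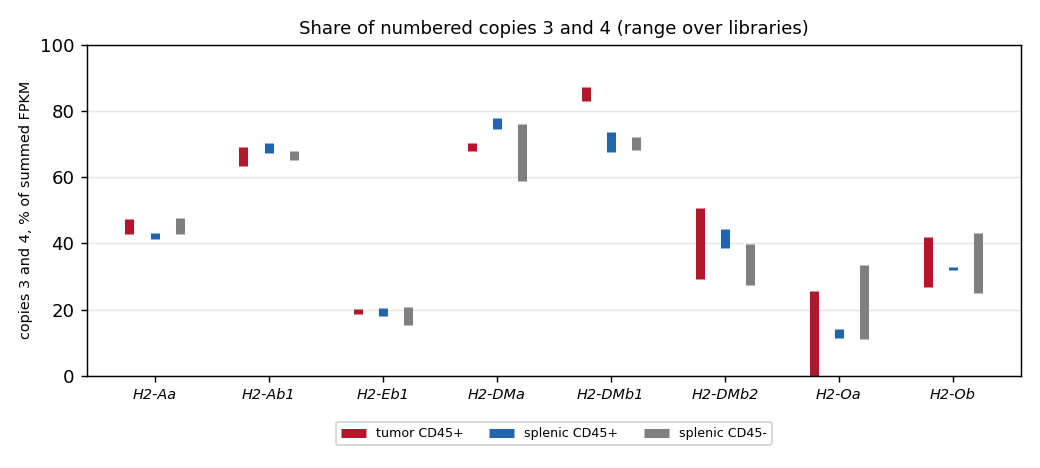
Share of the summed FPKM of each H2 gene held by its numbered copies 3 and 4, as the range over the libraries of tumor CD45+ (red, n = 4), splenic CD45+ (blue, n = 3) and splenic CD45- (grey, n = 3). The H2-DMb1 bar of tumor CD45+ (83.1% to 87.2%) lies above both splenic bars, and the H2-Eb1 bars overlap.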

How the data were processed

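Each library has 1 deposited table, listing 61685 RefSeq mRNA models with their values, and 1843 of the models are numbered copies. No header names the unit, and the authors' values were read as FPKM because they step with transcript length and, weighted by length, sum to 971633 to 1174331 over the 24850 models with a length. Per the submitters' processing notes, reads were placed on GRCm38.p6. The authors' aligner and estimating program were not given in the sources used here. RNA was extracted with TRIZOL per the labels' protocols, which do not state strand. Overlapping and near-identical genes are therefore uncertain.

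Models were summed by symbol (60167 models, 17603 genes). Models without a symbol held 0.423% to 1.06% of the summed FPKM. The test was limma (version 3.58.1, under R version 4.3.3), run on log2(FPKM + 1), which understates changes of low genes. It covered every gene that reached 1 FPKM in 3 or more compared libraries, two-sided, with Benjamini-Hochberg adjustment over all of them and a call at an adjusted p below 0.05. All adjusted p-values are from that test. The design named a count test for the case that the values were counts, which they were not. Alternatives were a pseudocount of 0.1, no filter, trimmed-mean scaling, a common sum, globin genes removed, 1 fit over all libraries, constant prior variance, a replicate block, the highest model alone, each library left out, and, added after seeing the data, the numbered copies left out. Same-numbered libraries did not deviate together more than other pairs did, and whether they share a mouse is not in the labels. Named were the 10 genes, all promoter factors and interferon axis genes, up to 4 of the most abundant genes of each other list, Ptprc, and the 8 most alike genes. An item of that axis is not reported here. Genes outside that rule (Flt3, Siglech, Cd80, Marchf8, Krt5, Krt14, Epcam, Csf1r) were chosen after their values were seen. The genes and lists were chosen with earlier results of these data known. Python 3.11.15 with numpy (2.4.6), pandas (2.3.3) and matplotlib (3.10.9) served for the other steps.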

Additional observations from a re-analysis of the deposited data

Results flagged for a closer look

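Only the tumor CD45+ group has 4 libraries, and 9 of 24 measures had 1 library whose gap to the nearest other exceeded Dixon's 95% critical value. Chance gives this in about 1 in 20 groups, and the measures share genes. In 8 of the 9, tumor replicate 1 was the library. It held 40.8 FPKM of H2-Aa (others 108 to 112), 24.7 FPKM of H2-Ab1 (others 54.9 to 59.5) and 13.3 FPKM of H2-Eb1 (others 33.96 to 36.4), and the 10 genes summed to 301 FPKM (others 586 to 618). Its DM chains per classical chains were 1.44 (others 0.585 to 0.597), its H2-DMa per DM beta chains 0.577 (others 0.738 to 0.762), its classical chains per Csf1r 0.259 (others 0.780 to 0.809) and its classical chains per Ptprc 1.33 (others 2.20 to 2.28). Tumor replicate 2 was the library for Ciita per classical chains, at 0.00195 (others 0.00228 to 0.00231).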

How the results depend on the processing

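Of 454 refits of the 10 genes, 410 kept direction and side of the threshold. All 10 were called higher in splenic CD45+ than in splenic CD45- under every scaling, and 9 or 10 with 1 library left out, where Ciita could fail the filter. In tumor CD45+ against splenic CD45+, 8 were called lower under each scaling, 6 without a filter, and 2 to 6 with 1 library left out. The fewest, 2 of 8 tested, came without splenic CD45+ replicate 1 or 3, and 4 came without tumor replicate 1. With 1 library left out, H2-DMa ranged from -0.32 to 1.38 and H2-DMb1 from -0.49 to 1.27, and H2-DMb1 was -0.49 without numbered copies. In tumor CD45+ against splenic CD45-, 3 rather than 6 were called higher under trimmed-mean scaling and in 1 fit over all libraries. Members called lower were 3 under trimmed-mean scaling and 0 with a pseudocount of 0.1, a common sum, 1 fit, the highest model or no numbered copies, and 0 to 1 with 1 library left out. H2-Eb1 was -0.08 and H2-DMb2 -0.77 under trimmed-mean scaling, and H2-DMb2 -0.34 with globin removed. The cause was not tested.

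Same-numbered libraries correlated at -0.18 to 0.24 in their deviations from group means, and differently numbered libraries at -0.32 to 0.25. With 3 or 4 libraries per group, these values cannot show whether same-numbered libraries share a mouse, and the labels do not say. With the replicate block 10 members were called higher between the splenic gates, 8 lower between the CD45+ groups, and 6 higher and 0 lower in tumor CD45+ against splenic CD45-. In both comparisons with tumor libraries the block also left out tumor replicate 4, whose number no splenic library has. In that setting the calls of Creb1, Jak1 and Irf1 between the CD45+ groups were lost (adjusted p = 0.0744, 0.0571 and 0.0674). The Irf1 call was also lost when tumor replicate 4 alone was left out (adjusted p = 0.0837).

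Between the splenic gates the median of all genes was 0.67, and with other scalings -0.32 (trimmed mean), 1.0 (common sum) and 0.45 (globin removed). Genes called higher there numbered 4912, 2224 under trimmed-mean scaling and 2741 (without splenic CD45+ replicate 1) to 3910 with 1 library left out. Genes called lower numbered 488, 3401 under trimmed-mean scaling, 121 with a common sum, 884 with globin removed and 201 to 1419 with 1 library left out. In tumor CD45+ against splenic CD45-, genes called higher numbered 7563, and 5009 under trimmed-mean scaling; genes called lower numbered 2522, 4998 under trimmed-mean scaling, 1597 with a common sum and 3830 with globin removed.

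Other genes changed sign. Between the splenic gates, trimmed-mean scaling gave -0.54 for Rfxap, -0.71 for Rfxank, -0.79 for Nfya, -0.17 for Jak1, -0.85 for Jak2 and -1.0 for Ctsd. Globin removal gave -0.01 for Rfxank, -0.02 for Jak2 and -0.15 for Ctsd. A common sum gave 0.36 for Nfyb, 0.01 for Nfyc and 0.27 for Ctsb, and the highest model -0.11 for Nfya and 0.02 for Nfyb. With 1 library left out, Nfyb ranged from -0.20 to 0.12, Ctsb from -0.55 to 0.28 and Ctsd from -0.09 to 0.22. In tumor CD45+ against splenic CD45+, globin removal gave -0.33 for Rfxap, -0.08 for Ifngr1, -0.15 for Irf2 and -0.15 for Prdm1, trimmed-mean scaling -0.06 for Rfxap, a common sum 0.08 for Rfxank, and the highest model 0.18 for Ptprc. With 1 library left out, Rfxap ranged from -0.00 to 0.18, Ifngr1 from -0.27 to 0.98, Prdm1 from -0.36 to 0.41, Itgax from -0.53 to 1.53 and Ptprc from -1.29 to 0.08. Levels below 1 FPKM, as for Ciita in tumor CD45+ and splenic CD45- libraries, are coarse at this depth.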
